A study of Mus musculus with 24 samples.

Results

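The genes described here encode the molecules that show antigens to T cells, together with the proteins that load and regulate them. They were chosen by name: every gene of the deposited tables whose symbol in GENCODE release M21 begins with H2-, pseudogenes with the suffix -ps left out, plus 15 genes of the loading pathway and its regulators (B2m, Tap1, Tap2, Tapbp, Tapbpl, Psmb8, Psmb9, Psmb10, Psme1, Psme2, Erap1, Nlrc5, Ciita, Cd74 and Cd1d1). The rule gave 56 of the 48795 gene identifiers in each table, of which 42 belong to the class I pathway, 11 to the class II pathway and 3 only share the name prefix. The rule uses names only. A gene was tested where its value reached 10 normalised counts in at least 4 of the 12 libraries of a table. That left 38 of the genes in the epithelial table (29 class I, 8 class II, 1 by name only) and 37 in the mesenchymal table (27, 9 and 1), with 36 tested in both and 17 in neither.

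MHC class I molecules are pairs of a heavy chain (H2-K, H2-D and the less polymorphic H2-Q, H2-T and H2-M families) and the light chain beta-2-microglobulin (B2m). They carry peptides that the proteasome cut in the cytosol and the TAP transporter moved into the endoplasmic reticulum, and their genes are driven by Nlrc5 and by interferon. MHC class II molecules (H2-A and H2-E, each an alpha and a beta chain) carry peptides from endosomes, are escorted there by the invariant chain Cd74, exchange peptides with the help of H2-DM and are switched on by Ciita. Nearly all nucleated cells make class I, whereas class II is the mark of dendritic cells, B cells and macrophages. In the lung, alveolar type 2 epithelial cells are known to express class II as well.

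All libraries came from lungs of female Balb/c mice aged 8 weeks, without any engineered allele named in the labels, and the lungs were taken 7 days after treatment. Sham mice were sham-irradiated and received a control IgG, irradiated mice received 13 Gy to the lungs and the control IgG, and depleted mice received the same irradiation and daily anti-Ly6G, an antibody that removes neutrophils. From digested lungs, sorted fractions negative for CD45 (leukocytes), CD31 (endothelium) and Ter119 (red cells) were split by EpCAM into epithelial and mesenchymal cells. The labels disagree on this gate, since the protocol writes CD45 a second time at the place where the cell type entries write CD31. Each of the 6 groups held 4 mice with 1 library per mouse, so p-values measure the spread between mice, and whether the fractions of a given number came from 1 mouse is not given in the sources used here.

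Reads per library, recovered from the deposited values, ranged from 8159062 to 13373329 in the epithelial and from 7366672 to 11408083 in the mesenchymal table. In epithelial libraries the summed level of 8 pan-epithelial markers was 15930 to 18937 normalised counts and that of 8 mesenchymal markers 6045 to 10193. In mesenchymal libraries the same sums were 139 to 468 and 128663 to 223172, so each fraction carried its labelled markers as the higher sum. All 14 pan-leukocyte markers, all 10 endothelial markers and all 8 pan-epithelial markers were detected in every group of both tables. Balb/c carries the d haplotype of the H2 complex while the reference genome is that of C57BL/6 with the b haplotype. The class I heavy chains are also near copies of each other, so reads may have been divided differently among H2-K1, H2-D1 and the H2-Q genes than their transcripts were.

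The genes that were not tested in either table were mostly of the H2-M group. H2-M10.1, H2-M10.3, H2-M10.5 and H2-M11 were at 0 in all 24 libraries, and H2-M1, H2-M2, H2-M9, H2-M10.4 and H2-M10.6 stayed below the smallest value that 3 reads correspond to. H2-M10.2 reached 6.62 at most. Also below the filter were H2-Q3, H2-Bl and H2-T3 of class I, H2-Oa and H2-Eb2 of class II, and H2-Pa and H2-Pb, pseudogenes that share only the prefix. H2-Oa, the alpha chain of the H2-O protein that restrains H2-DM, stayed at or below 7.12, and H2-Eb2, a second E beta chain, at or below 7.43. In a single library 3 reads, the most that a count of 0 allows, correspond to 2.36 to 3.81 normalised counts. H2-K2 and H2-M5 were tested only in the epithelial table and H2-Ob, the partner of H2-Oa, only in the mesenchymal one.

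In sham epithelium Cd74 stood far above every other gene of the group when levels were expressed per kilobase of annotated exon. It measured 10901 ± 1099 normalised counts per kb (SD, n = 4), followed by H2-D1, a classical class I heavy chain, at 1411 ± 158, and B2m at 1332 ± 58.9. The ranges of H2-D1 and B2m were closer than their spread. Next on the per kb scale came the class II chains, with H2-Aa, the A alpha chain, at 771 ± 89.0, H2-Ab1, the A beta chain, at 699.7 ± 97.0, and H2-Eb1, the E beta chain, at 577 ± 106. H2-Aa and H2-Ab1 differed by less than their SDs, while H2-Eb1 lay below both by more than any of these SDs. Tapbp (tapasin, which holds class I molecules at the TAP transporter), H2-K1 (the other classical heavy chain), Psme1 (a subunit of the PA28 proteasome activator) and H2-Q4 formed a group at 429, 428, 419 and 411 per kb, with SDs of 14.3 to 64.8, so their order was not resolved. The regulators were far lower, with Ciita at 43.8 ± 9.54 and Nlrc5 at 3.09 ± 0.534 per kb.

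The order in sham mesenchyme was another one. B2m came first with 2840.5 ± 89.9 normalised counts per kb, ahead of H2-D1 at 839 ± 57.7 and Tapbp at 439 ± 18.8. H2-Q4 and H2-K1 followed at 364 ± 53.1 and 348 ± 17.3, which their spread does not separate. Cd74 ranked sixth at 189.7 ± 81.6, and H2-Eb1, H2-Aa and H2-Ab1 measured only 27.4 ± 12.1, 23.2 ± 7.93 and 20.7 ± 8.65 per kb. Ciita measured 3.20 ± 0.361 and Nlrc5 4.21 ± 1.90 per kb, so in this table the SDs of the activators of class I and class II overlapped.

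The balance of the pathways was compared between the fractions by a ratio within each library, because every table has its own scale. The log2 ratio of Cd74 to B2m was 4.23, 3.74, 3.99 and 4.00 in epithelial sham replicates 1 to 4 and -2.84, -2.28, -3.18 and -3.86 in the mesenchymal ones. All epithelial libraries were above 0 and all mesenchymal libraries below. The means, 3.99 ± 0.20 and -3.04 ± 0.66 (SD, n = 4), differ by 7.03 on the log2 scale, or 131-fold, in an exact two-sided permutation test with p = 0.0286, the smallest p that 4 against 4 libraries allow. The difference was 6.23 with H2-Ab1 in the place of Cd74 and 5.64 with H2-K1 in the place of B2m. In the other groups the ratio was 3.85 ± 0.14 in irradiated and 3.79 ± 0.25 in depleted epithelium, and -2.19 ± 0.45 and -2.57 ± 0.52 in irradiated and depleted mesenchyme.

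**Figure D1:**
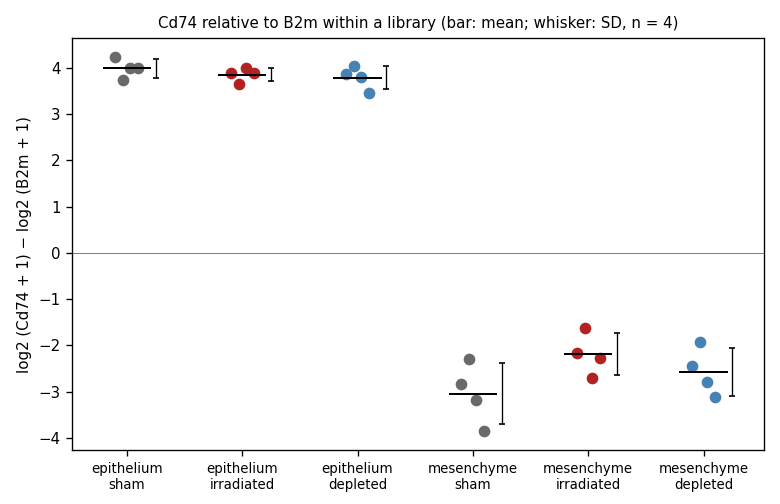
Log2 ratio of Cd74 to B2m within each library (vertical axis) for the 6 groups (horizontal axis). Points are libraries, bars are group means and whiskers are SDs over 4 libraries. The 12 epithelial libraries lie above 0 and the 12 mesenchymal libraries below it.

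Sequence upstream of the start site was compared between the promoters of both classes. RefSeq (build GRCm38.p6) gave 44 promoters for 40 of the 56 symbols, and the 250 bases before the start were searched on both strands for 5 motifs. CCAAT, the box bound by NF-Y, occurred in 34 of the 44 windows and in 33.8% of all 32851 promoters. A form of the X box bound by RFX, the factor on which Ciita and Nlrc5 dock, was searched as AGNNAC directly followed by NGATG, and occurred in 9 of the 44 and in 0.816% of all. Of the genes with this match, only H2-DMb1, H2-Eb1 and Psmb10 were tested. The others were H2-Eb2, H2-Oa, H2-M10.1, H2-M10.2, H2-M10.5 and H2-M10.6. Neither B2m nor a tested class I heavy chain had this exact form. The windows of H2-D1, H2-Q4, H2-Q6 and H2-Q7 held GGACAC directly followed by TGATG, which departs from it in the first base only. Such near matches were not counted, so the search does not show that these promoters lack an X box. The interferon element, TTTC repeated with any 2 bases between, was found in 3 of the 44 windows (2.98% of all), the gamma activated site TTCNNNGAA in 4 (7.02%) and the NF-kappaB site, GGGNN directly followed by TTTCC, in 2 (1.41%). None of these motifs is contained in another, and a match describes letters only, not a bound site. The windows of the class I light chain, a class I heavy chain and the class II A and E chains are shown, because the same CCAAT letters appear in all of these genes although their levels differ. Capitals mark matches to any of the 5 motifs in either orientation, and each window is written 5′ to 3′ on the strand of its gene.
B2m, chr2:122147437-122147686, plus strand: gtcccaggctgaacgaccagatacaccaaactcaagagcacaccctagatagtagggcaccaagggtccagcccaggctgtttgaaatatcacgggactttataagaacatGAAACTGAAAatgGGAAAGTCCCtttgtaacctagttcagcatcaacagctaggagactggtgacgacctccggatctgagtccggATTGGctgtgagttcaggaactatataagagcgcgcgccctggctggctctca
H2-K1, chr17:34000348-34000597, minus strand: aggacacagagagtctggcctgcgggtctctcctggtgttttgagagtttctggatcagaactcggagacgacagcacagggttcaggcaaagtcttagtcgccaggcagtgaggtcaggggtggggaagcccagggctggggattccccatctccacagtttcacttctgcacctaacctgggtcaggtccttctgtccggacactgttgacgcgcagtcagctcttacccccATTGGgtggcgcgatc
H2-Aa, chr17:34287824-34288073, minus strand: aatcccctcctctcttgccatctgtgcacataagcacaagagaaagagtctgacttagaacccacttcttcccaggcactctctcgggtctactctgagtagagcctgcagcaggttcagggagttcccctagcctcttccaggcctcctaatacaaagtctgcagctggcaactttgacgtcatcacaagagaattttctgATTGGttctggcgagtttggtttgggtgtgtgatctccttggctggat
H2-Eb1, chr17:34305617-34305866, plus strand: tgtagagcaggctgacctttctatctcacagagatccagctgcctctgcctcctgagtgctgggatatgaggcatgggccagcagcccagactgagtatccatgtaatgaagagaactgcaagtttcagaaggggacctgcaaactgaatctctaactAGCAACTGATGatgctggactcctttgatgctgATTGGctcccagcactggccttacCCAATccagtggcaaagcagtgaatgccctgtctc
In the B2m window the interferon element lies 139 to 130 bases and the NF-kappaB site 126 to 117 bases before the start, both in the reverse orientation, with a reverse CCAAT at 53 to 49. The H2-K1 window shown has a reverse CCAAT at 16 to 12 and H2-Aa has one at 48 to 44. A second H2-K1 window, chr17:34000334-34000583, has a reverse CCAAT at 30 to 26 and a forward one at 6 to 2. H2-Eb1 holds an X box in the forward orientation at 92 to 82, a reverse CCAAT at 59 to 55 and a forward one at 35 to 31. The table held no promoter for Nlrc5, Ciita, Cd74, H2-Ab1 or Tap2.

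Irradiation was first compared with sham in the epithelium. There 2 of 29 class I genes rose, Tap1 and Nlrc5, none was called lower, and none of 8 class II genes was called. Of all 16626 tested genes 3.14% were called in either direction and 2.26% were called higher. Tap1 (GRCm38 chromosome 17, 34187553 to 34197225), a subunit of the peptide transporter, measured 190.3, 167, 144 and 156 normalised counts in sham replicates 1 to 4 and 208, 247, 203 and 225 in irradiated ones. The lowest irradiated library was above the highest sham library. The mean went from 164 ± 19.7 to 221 ± 19.6 (SD, n = 4), a log2 change of 0.43 ± 0.0955 (SE, adjusted p = 0.0178). Nlrc5 (chromosome 8, 94434356 to 94527272), the activator of class I transcription, measured 27.3, 27.6, 30.4 and 19.8 in sham and 44.0, 64.6, 47.7 and 33.0 in irradiated libraries. Here too the groups did not overlap, and irradiated replicate 2 was the highest. Its log2 change was 0.80 ± 0.206 (adjusted p = 0.0397). The Nlrc5 call was lost without a filter and with the 2 groups alone. Omitting irradiated replicate 2 or 4, or sham replicate 3 or 4, ended the Tap1 call (adjusted p up to 0.0933). The Nlrc5 call was lost without any 1 of 8 libraries (each sham replicate, irradiated replicates 1, 2 and 3, and depleted replicate 1, which shares the fit), with an adjusted p of 0.022 to 0.192 over the 12 omissions.

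The classical heavy chains and B2m were not called. H2-K1 (chromosome 17, 33996017 to 34000347) measured 1375, 1295, 1210.1 and 1151 in sham and 1399, 1553, 1288 and 1227 in irradiated epithelium, and H2-D1 measured 4095, 3845, 3427 and 3190.0 and 3838, 4599.8, 3931 and 3759.6. Their groups overlapped, with log2 differences of 0.12 ± 0.0711 and 0.15 ± 0.0755 and adjusted p of 0.507 and 0.387. B2m (chromosome 2, 122147686 to 122153083) measured 1099.6, 1216, 1145 and 1121 in sham and 1259.6, 1324, 1015 and 990.3 in irradiated libraries. Its irradiated replicates 1 and 2 were above and replicates 3 and 4 below every sham library, and the log2 difference was -0.01 ± 0.0795. The summed counts of the heavy chain genes, a sum that is insensitive to how reads were divided among near copies in the tables, were 7189 ± 829 in sham and 8196 ± 941 in irradiated libraries. Among the less polymorphic heavy chains, H2-Q7, which encodes Qa-2, had a log2 difference of 0.57 ± 0.190 (adjusted p = 0.137), and H2-T24 had 0.39 ± 0.180 (adjusted p = 0.338) without overlap of its groups. In all, 3 class I genes and no class II gene had irradiated libraries that all lay above sham, where 4.94% of all tested genes did. The median log2 difference of the 29 class I genes was 0.15, with 21 above 0, beside -0.01 and 48.1% above 0 over all tested genes.

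The immunoproteasome subunits Psmb8 and Psmb9, which replace standard subunits and change the peptides that are cut, were not called. Psmb8 measured 188, 161, 152 and 134 in sham and 179, 175, 191 and 158 in irradiated epithelium, and Psmb9 52.7, 60.5, 39.3 and 41.6 and 55.8, 67.0, 52.6 and 54.7. Both genes' groups overlapped, with log2 differences of 0.15 and 0.26. Class II differences lay close to 0 between these groups. Cd74 measured 20720.0, 16236, 18264 and 17994 in sham and 18517, 16678, 16188 and 14668 in irradiated epithelium, with sham replicate 1 the highest and irradiated replicate 4 the lowest. Ciita (chromosome 16, 10480059 to 10528418) measured 550.3, 393, 380.5 and 346 and 464, 370.3, 464 and 414, and the log2 differences were -0.15 ± 0.127 and 0.05 ± 0.237. The 8 class II genes had a median of 0.01 with 4 above 0, and none had an unadjusted p under 0.05, which 14.3% of all tested genes had. By edgeR and by DESeq2 on recovered reads no class II gene was called either.

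Leukocyte transcripts were higher in the irradiated epithelial libraries. The mean log2 level of the 14 pan-leukocyte markers was 5.29 in sham, 6.39 in irradiated and 6.10 in depleted epithelium, with summed levels of 3673 to 4048, 3861 to 5056 and 3398 to 4263 normalised counts. Of these markers 3 rose (Itgb2, Laptm5 and Coro1a), of the 4 tested dendritic cell markers 2 (Itgax and Clec9a), and of the 5 tested B cell markers 1 (Igkc). Markers of other cell types rose as well, with 4 of 6 tested neutrophil, 4 of 10 endothelial, 2 of 7 tested macrophage and 2 of 8 mesenchymal markers called. None of these lists had a member called lower, and 2.26% of all tested genes were called higher. The 8 neutrophil markers summed to 12.5 to 56.2 normalised counts in sham, where Ly6g was at 0, and to 125 to 457 in irradiated libraries, and the 10 endothelial markers to 1069.9 to 1558 and 1918 to 3659. The 12 macrophage markers summed to 368 to 625 and 593 to 1101. With the leukocyte level of each library as a covariate, the irradiation difference was 0.22 for Tap1 (adjusted p = 0.968) and 0.43 for Nlrc5 (adjusted p = 0.974), and the class I median was -0.11. In that fit 45 of all 16626 tested genes were called, beside 522 without the covariate. The leukocyte level was 4.64 to 5.90 in sham and 6.04 to 7.06 in irradiated libraries, without overlap. The covariate fit therefore cannot separate it from the treatment, and the part of these markers in the rises was not tested. In sorted cells measured in bulk, a different share of cells of a type and a different amount of RNA per cell cannot be told apart.

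**Figure D2:**
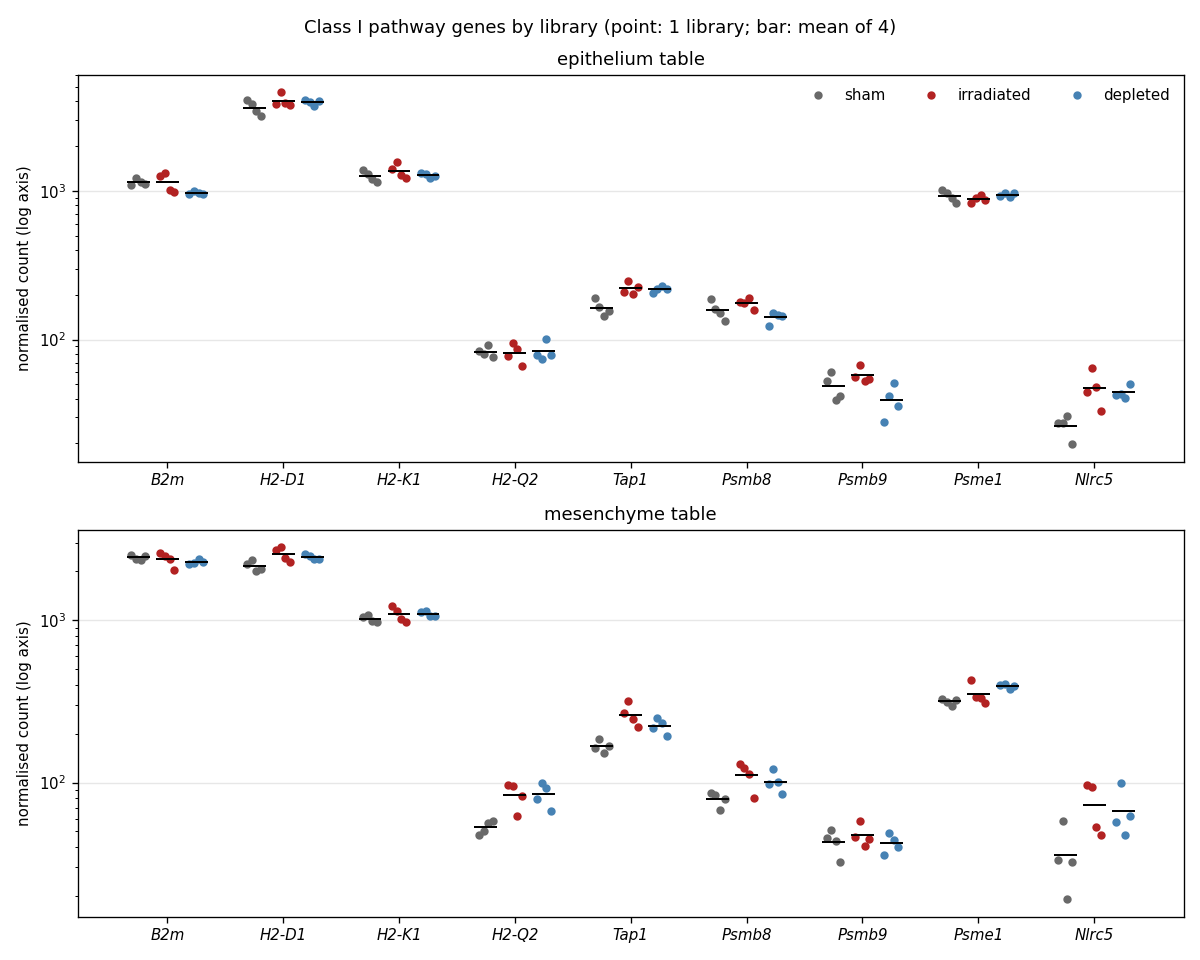
Normalised counts (log axis) of 9 class I pathway genes in the epithelial (upper) and mesenchymal (lower) tables, by library. Points are libraries, bars are means of 4, and colours are the 3 treatment groups. Irradiated and depleted Tap1 lie above sham in both tables, while B2m, H2-D1 and H2-K1 stay near their sham levels.

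Next, the depleted group was set against the irradiated group in the epithelium, which shares the irradiated libraries with the comparison above. No gene of the group was called by limma among 29 class I and 8 class II genes, nor by edgeR or DESeq2, beside 0.475% of all tested genes called. The 8 neutrophil markers had a mean log2 level of 4.01 in irradiated and 4.01 in depleted epithelium, and none of the 6 tested was called. An unadjusted p under 0.05 was reached by 5 class I and 5 class II genes, where 12.4% of all tested genes reached it. All 8 class II differences were below 0 (median -0.32, from -0.49 to -0.20), beside 0.00 over all tested genes with 50.2% above 0. H2-Aa measured 3064, 2842, 2798 and 2753 in irradiated and 2164, 2699.8, 2404 and 1613 in depleted epithelium, without overlap, and depleted replicate 4 was the lowest. Its log2 difference was -0.39 ± 0.137 (adjusted p = 0.257). Cd74 was 13829.7, 16611, 13681 and 10429 in depleted libraries, with a difference of -0.29 ± 0.127 from irradiated (adjusted p = 0.381), and Ciita was 331, 392, 388 and 184, with -0.46 ± 0.237. Again depleted replicate 4 was lowest in both. Without that library the class II median was -0.18.

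Of the other A and E chains, H2-Ab1 measured 2111, 1503, 1775 and 1797 in sham, 1977, 1678, 1708 and 1503 in irradiated and 1489, 1619, 1498 and 944 in depleted epithelium. H2-Eb1 measured 1415, 951, 1110.1 and 1014, 1270.3, 1304, 1163 and 1275 and 1039, 1241, 1026 and 780.1 in the same order. In both genes depleted replicate 4 was the lowest of all 12 libraries. The counts of H2-Aa, H2-Ab1, H2-Eb1 and H2-Eb2, without an E alpha chain, summed to 5852 ± 781 in sham, 5839 ± 342 in irradiated and 4631 ± 935 in depleted libraries. Among class I genes the groups of Psmb8, Psmb9 and H2-T24 did not overlap, with depleted below irradiated, and such a separation in that direction occurred in 3.18% of all tested genes. Psmb9 measured 28.1, 41.9, 50.8 and 35.9 and Psmb8 123, 151, 146 and 145 in depleted libraries. The log2 differences were -0.57 ± 0.194 and -0.31 ± 0.110, with adjusted p of 0.209 and 0.217. Tap1 at 205, 219, 228 and 220.2 and Nlrc5 at 42.6, 43.2, 40.6 and 50.3 were near the irradiated levels in depleted libraries, with log2 differences of -0.02 and -0.06. B2m measured 953, 1005, 975 and 955, a difference of -0.23 ± 0.0795 (adjusted p = 0.220), while H2-K1 at 1329, 1299, 1229 and 1259.9 and H2-D1 at 4072, 3991, 3739.9 and 4007 differed by -0.09 and -0.02.

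Against sham, depleted epithelium had 2 class I genes higher (Tap1 and Nlrc5) and 1 class II gene lower (Cd74), beside 11.3% of all tested genes called, 6.52% higher and 4.76% lower. This comparison shares its sham libraries with that of irradiated and sham epithelium. Tap1 rose by 0.41 ± 0.0955 (adjusted p = 0.00937) and kept its call without each library in turn, with 0.0397 as the highest adjusted p. Nlrc5 rose by 0.74 ± 0.206 (adjusted p = 0.0260), a call lost without sham replicate 4, depleted replicate 1 or depleted replicate 4 (up to 0.0859). Cd74 fell from 18303 ± 1845 to 13638 ± 2528, a log2 change of -0.44 ± 0.127 (adjusted p = 0.0481), with overlapping groups. That call held without sham replicate 2 or depleted replicate 2 and was lost without any 1 of the other 10 libraries, over an adjusted p of 0.00865 to 0.109. With the leukocyte level as a covariate, the log2 difference was 0.26 for Tap1 (adjusted p = 0.290), 0.47 for Nlrc5 (0.422) and -0.51 for Cd74 (0.187), so that of Cd74 was as large as without it, and 362 of all tested genes were called in place of 1876. The Cd74 call was also lost without a filter and with the 2 groups alone. H2-Aa had a difference of -0.42 ± 0.137 (adjusted p = 0.0781), and all 8 class II differences were below 0, with a median of -0.37, and of -0.18 without depleted replicate 4. B2m was lower in every depleted than in every sham library (-0.24, adjusted p = 0.0653), as were Erap1, which trims peptides to length, Tapbpl, a peptide editor related to tapasin, H2-M5 and H2-T10, and none of these 5 was called. Groups without overlap in that direction made up 7.89% of all tested genes. Beside these values, 4 of 5 mesothelial, 4 of 8 mesenchymal, 4 of 6 tested neutrophil and 4 of 7 tested macrophage markers rose in depleted against sham epithelium, and of the 8 pan-epithelial markers 3 fell and 1 rose. The mesothelial markers summed to 212 to 301 normalised counts in sham and 496 to 1463 in depleted libraries. None of the 7 alveolar type 2 markers was called (median log2 difference 0.06). Their mean log2 level was 16.08 in sham and 16.09 in depleted epithelium. The part of these cells in the differences was not tested.

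**Figure D3:**
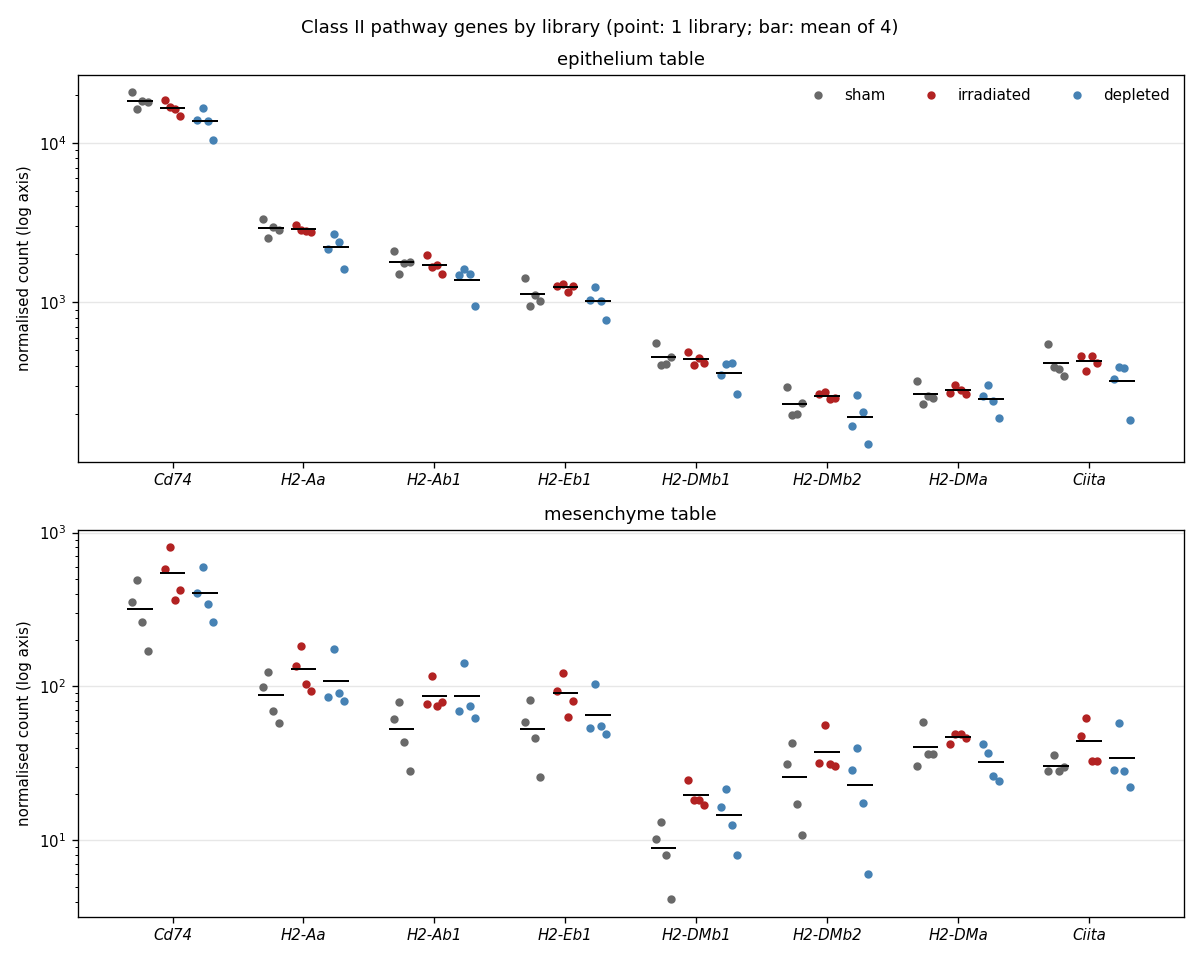
Normalised counts (log axis) of 8 class II pathway genes in the epithelial (upper) and mesenchymal (lower) tables, by library. Points are libraries, bars are means of 4, and colours are the 3 treatment groups. The spread between libraries of a group is wider in the mesenchymal table, where Cd74 ranged from 170 to 803.

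In the mesenchyme, irradiation raised 2 of 27 class I genes, Tap1 and H2-Q2, and none of 9 class II genes was called. Beside these calls, 3.80% of all 16624 tested genes were called and 2.64% were called higher. Tap1 measured 163, 185, 152 and 167 in sham and 267, 318, 245 and 219.5 in irradiated mesenchyme. Every irradiated library was above every sham library, and the mean went from 167 ± 13.3 to 262 ± 41.6. The log2 change was 0.64 ± 0.114 (adjusted p = 0.00596), and the call held without each library in turn (up to 0.0291). H2-Q2 (chromosome 17, 35342242 to 35346762), a heavy chain of the Q region, measured 47.7, 50.5, 56.5 and 58.2 in sham and 95.9, 95.6, 62.0 and 82.9 in irradiated libraries. The groups did not overlap, and the log2 change was 0.63 ± 0.167 (adjusted p = 0.0466). Its call held without irradiated replicate 3 or depleted replicate 4 and was lost without any 1 of the other 10 libraries (0.02 to 0.151). With the leukocyte level as a covariate, the difference was 0.34 for Tap1 (adjusted p = 0.614) and 0.50 for H2-Q2 (0.741), beside 52 of all tested genes called in place of 631. The H2-Q2 call was also lost without a filter and with the 2 groups alone.

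Nlrc5 varied more between libraries here. It measured 33.5, 57.9, 19.2 and 32.4 in sham and 97.0, 94.5, 52.9 and 47.6 in irradiated mesenchyme, so that sham replicate 2 lay above irradiated replicates 3 and 4. Its log2 difference of 1.04 ± 0.333 was not called (adjusted p = 0.0945). H2-D1 measured 2221, 2348, 2020.1 and 2071 and 2718, 2820.2, 2434 and 2300.3, with only sham replicate 2 above the lowest irradiated library, and a difference of 0.24 ± 0.0771 (adjusted p = 0.0843). H2-K1 measured 1048, 1082, 983 and 978 and 1222, 1140.4, 1025 and 971, B2m 2536, 2394, 2366 and 2476 and 2597, 2473, 2393 and 2036. These 2 genes differed by 0.09 ± 0.0751 and -0.05 ± 0.0748 on the log2 scale, and irradiated replicate 4 was the lowest library in both. Psmb8 measured 86.2, 83.6, 67.6 and 79.0 in sham and 130.0, 123, 113 and 80.5 in irradiated libraries, a difference of 0.47 ± 0.157 (adjusted p = 0.0967), while Psmb9 measured 45.6, 51.3, 43.4 and 32.4 and 46.4, 58.0, 40.7 and 45.1, a difference of 0.14 ± 0.181. The class I median was 0.18 (0.05 with the leukocyte covariate) with 23 of 27 above 0, beside -0.01 and 48.5% over all tested genes, and the heavy chain sums were 5696 ± 416 in sham and 6666 ± 679 in irradiated libraries. The groups of Tap1, H2-Q2, H2-Q10 and, of class II, H2-DMb1 did not overlap, a separation seen upward in 6.26% of all tested genes.

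All 9 class II differences between irradiated and sham mesenchyme were above 0, with a median of 0.68 and a range of 0.24 to 1.13, but the limma fit over the 3 groups called none. An unadjusted p under 0.05 was reached by 3 of them, beside 21.0% of all tested genes, and neither edgeR nor DESeq2 called any. Cd74 measured 353, 491, 260.5 and 169.6 in sham and 579, 803, 364 and 423 in irradiated mesenchyme, a log2 difference of 0.80 ± 0.375 (adjusted p = 0.257). H2-Ab1 measured 61.9, 79.4, 43.4 and 28.3 and 76.3, 117, 74.2 and 79.3, a difference of 0.77 ± 0.313 (adjusted p = 0.184). In both genes replicate 2 was the highest library of its group, and sham replicate 2 overlapped the irradiated libraries. H2-Eb1 measured 58.8, 81.9, 46.4 and 25.8 and 93.9, 123, 63.1 and 80.5, H2-Aa 99.4, 125, 69.7 and 58.2 and 136, 183, 104 and 93.9, with differences of 0.82 ± 0.333 and 0.56 ± 0.302. Ciita measured 28.4, 35.6, 28.3 and 29.9 and 47.5, 62.6, 32.5 and 32.9, a difference of 0.46 ± 0.274. H2-DMb1, a beta chain of the peptide exchanger H2-DM, measured 10.1, 13.2, 8.08 and 4.16 in sham and 24.8, 18.2, 18.3 and 17.1 in irradiated libraries. Its groups did not overlap and its log2 difference was 1.13 ± 0.350 (adjusted p = 0.0793). At these counts sham values lay partly below the filter, and leaving out sham replicate 2 gave H2-DMb1 a call and the class II median a value of 0.96.

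Leukocyte transcripts, and those of other cell types, moved with these values. In mesenchymal libraries the 14 pan-leukocyte markers had a mean log2 level of 5.55 in sham, 6.72 in irradiated and 6.22 in depleted mice, with sums of 552 to 1523, 1570 to 3373 and 1104 to 2454 normalised counts, and 3 of them rose with irradiation (Itgb2, Itgal and Vav1). The 7 dendritic cell markers had sums between 189 and 315 in sham, between 307 and 518 in irradiated, and between 252 and 420 in depleted libraries. Of other lists, 4 of 7 tested neutrophil and 4 of 11 tested macrophage markers rose with irradiation, with neutrophil sums of 84.8 to 275 in sham and 344 to 709 in irradiated libraries. Abca3 of the 7 alveolar type 2 and Krt8 of 7 tested pan-epithelial markers rose too, and none of 10 endothelial markers was called. The median log2 differences of these 3 lists were 0.81, 0.79 and 1.16. Over all tested genes 2.64% were called higher. The 6 B cell markers summed to 144 to 328, 324 to 666 and 119 to 397. The 7 alveolar type 2 markers, which belong to the epithelial fraction, had mean log2 levels of 8.76, 9.53 and 9.29. Of these lists only the macrophage marker Marco was at 0 throughout a group, in sham. In each group replicate 2 had the highest leukocyte level and the highest mean class II level, 5.90 in sham, 6.37 in irradiated and 6.23 in depleted mesenchyme. It was also highest in each group for alveolar type 2 (9.33, 9.98 and 9.58) and endothelial markers (7.96, 8.70 and 8.35). The same held for macrophage, dendritic cell, B cell, and T and NK cell markers. For pan-epithelial, neutrophil, mesothelial and mesenchymal markers it did not hold in every group. With the leukocyte level as a covariate the class II median for irradiated against sham was -0.30. The leukocyte level was 4.94 to 6.29 in sham and 6.30 to 7.39 in irradiated libraries. Without overlap the covariate fit cannot separate it from the treatment, and the part of these cells in the class II level was not tested.

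**Figure D4:**
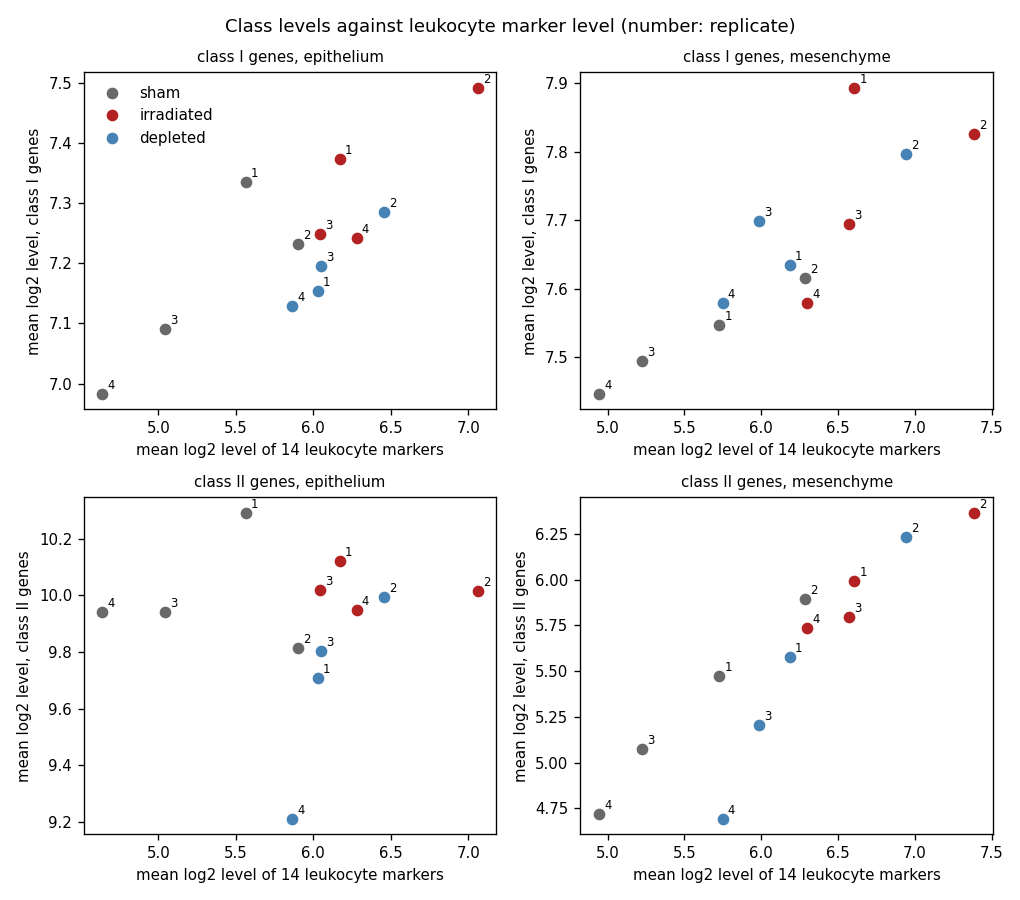
Mean log2 level of the tested class I genes (upper) and class II genes (lower) against the mean log2 level of 14 leukocyte markers in epithelial (left) and mesenchymal (right) libraries. Each point is a library with its replicate number, and colours are the treatment groups. In the mesenchyme the class II level is highest in replicate 2 of each group, which also has the highest leukocyte level of its group.

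Between depleted and irradiated mesenchyme, no gene of the group was called by limma, edgeR or DESeq2 (27 class I and 9 class II genes), beside 2.69% of all tested genes called. The 8 neutrophil markers had mean log2 levels of 4.58 in depleted and 4.86 in irradiated mesenchyme. Of the 7 tested, 2 were called lower (Cxcr2 and Csf3r). An unadjusted p under 0.05 was reached by 2 class I and 2 class II genes, where 17.9% of all tested genes reached it. The 9 class II differences were all below 0, with a median of -0.46 and a range of -1.36 to -0.05, and only the groups of H2-DMa, the alpha chain of H2-DM, did not overlap (-0.55 ± 0.222, adjusted p = 0.201). With the leukocyte covariate that median was -0.07. In depleted libraries Cd74 measured 407, 595, 344 and 262, H2-Aa 85.1, 175, 90.8 and 80.6 and H2-Ab1 69.7, 141, 74.4 and 62.5. Replicate 2 was the highest in each of these genes. H2-Eb1 measured 53.3, 103, 55.1 and 49.4 and Ciita 28.7, 57.6, 28.0 and 22.2, with the same library highest. The lowest value of the range belonged to H2-Ob, which was tested near the filter (-1.36 ± 0.611, adjusted p = 0.259). In class I the separated gene was H2-Q10, a heavy chain known as a secreted form, at -0.31 ± 0.119 (adjusted p = 0.176), and the share of all tested genes separated downward was 3.93%.

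Against sham, depleted mesenchyme had 3 of 27 class I genes higher (Tap1, H2-Q2 and Psme1) and no class II gene called, beside 15.2% of all tested genes called and 8.51% called higher. Tap1 at 216, 249, 232 and 194 lay above every sham library, a log2 change of 0.41 ± 0.114 (adjusted p = 0.0234). That call was lost without sham replicate 1 or 3 or depleted replicate 1 or 2 (up to 0.0774). H2-Q2 at 78.9, 99.9, 92.8 and 66.5 changed by 0.65 ± 0.167 (adjusted p = 0.0165), a call lost without depleted replicate 2 (0.0558). Psme1 (chromosome 14, 55578123 to 55581529) measured 329, 314, 298 and 323 in sham, 429, 336, 331 and 307 in irradiated and 399.7, 402, 378 and 391 in depleted mesenchyme. Depleted libraries were above all sham libraries, while irradiated replicate 1 was the highest of the 12. The log2 change against sham was 0.31 ± 0.0903 (adjusted p = 0.0280), lost without sham replicate 2 or 3 or depleted replicate 1, 2 or 4 (up to 0.0886). With the leukocyte covariate the log2 difference was 0.24 for Tap1 (adjusted p = 0.186), 0.57 for H2-Q2 (0.0865) and 0.30 for Psme1 (0.104), so those of H2-Q2 and Psme1 stayed near their values without it, and 1478 of all tested genes were called in place of 2528. Without a filter the Psme1 call was lost. The groups of H2-T23 (Qa-1), H2-D1 and Psme2, the partner of Psme1, were also separated, making 6 class I genes, beside 10.3% of all tested genes separated upward. Nlrc5 measured 57.4, 99.0, 47.4 and 62.5 in depleted libraries (0.93 ± 0.333, adjusted p = 0.0778). H2-D1 measured 2567, 2483, 2382 and 2379.6, H2-K1 1131, 1147, 1067 and 1056, B2m 2206, 2246, 2386 and 2293, Psmb8 97.4, 121, 101 and 84.7 and Psmb9 35.9, 48.6, 44.5 and 40.3. The class II differences ran from -0.68 to 0.72 with 6 of 9 above 0 and 1 at an unadjusted p under 0.05, beside 29.2% of all tested genes, and edgeR and DESeq2 called none.

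H2-Q2 and Psme1, called in the mesenchyme, were not called in the epithelium. H2-Q2 measured 83.9, 79.6, 92.0 and 76.0 in sham, 77.3, 94.5, 86.6 and 65.9 in irradiated and 78.6, 73.7, 102 and 79.0 in depleted epithelium, and Psme1 1013, 969, 891 and 831, 833, 897, 935 and 864 and 921, 961, 912 and 968. Whether the responses of the fractions differ was tested as an interaction over all 24 libraries on 15092 genes, for irradiated against sham and for depleted against irradiated. Depleted against sham, the comparison in which Psme1 was called, was not tested between the fractions. Limma called none of the 36 genes tested in both tables, for irradiation or for depletion, beside 0.629% and 0.596% of all tested genes. An unadjusted p under 0.05 was reached by 4 of them for irradiation and 1 for depletion, beside 13.3% and 11.3% of all tested genes. The 4 were H2-DMb1, with an epithelial minus mesenchymal difference of -1.18 ± 0.359 (adjusted p = 0.129), H2-Q2 with -0.67 ± 0.218 (adjusted p = 0.150), Cd74 with -0.95 ± 0.407 (adjusted p = 0.309) and H2-Ab1 with -0.83 ± 0.386 (adjusted p = 0.358). The other was Erap1 for depletion (-0.29, adjusted p = 0.333). H2-DMb1 was called for irradiation when mesenchymal sham replicate 2 was left out. For Tap1 the interaction of irradiation was -0.21 with a 95% interval of -0.52 to 0.10, and for Nlrc5 it was -0.24 with an interval of -1.06 to 0.59.

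**Figure D5:**
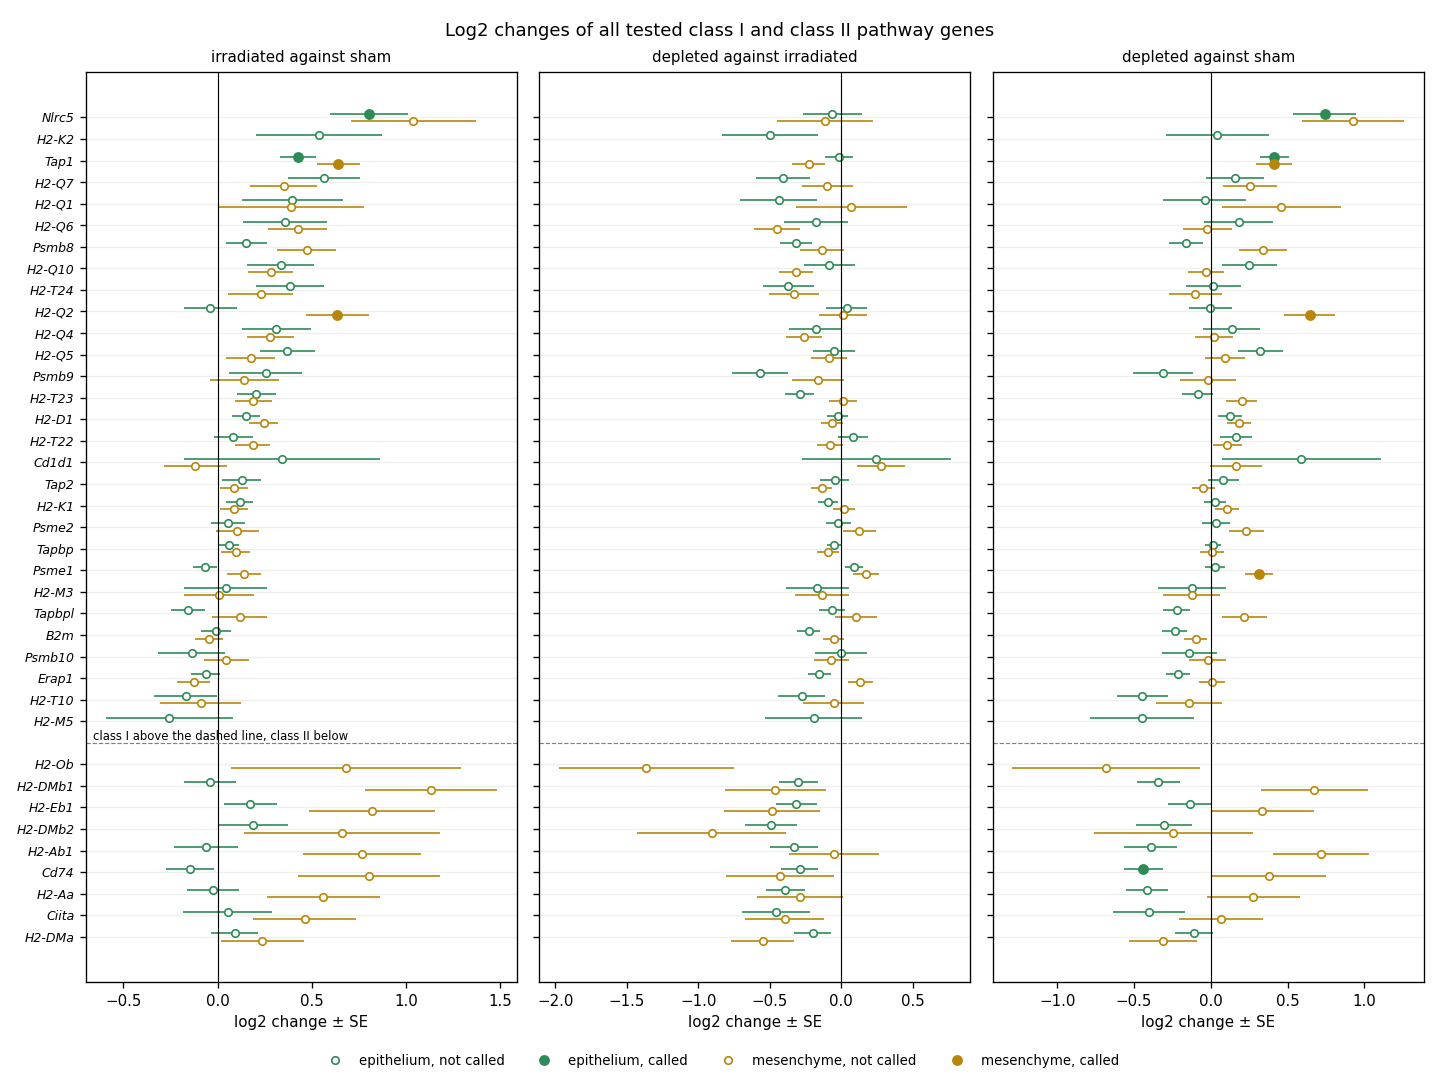
Log2 changes (horizontal axis, bars are SE) of every tested class I gene (above the dashed line) and class II gene (below it) in the 3 comparisons, for epithelium and mesenchyme. Filled points passed an adjusted p under 0.05. Filled points are Tap1 and Nlrc5 in the epithelium and Tap1 and H2-Q2 in the mesenchyme for irradiation, none for depleted against irradiated, and Tap1, Nlrc5, Cd74, H2-Q2 and Psme1 for depleted against sham.

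The surrounding pathway was read from 6 lists. Of 15 interferon signalling genes none was called in the epithelium for irradiation or for depleted against irradiated, and Socs3, a feedback inhibitor of cytokine receptors, rose in depleted against sham (0.63 ± 0.176, adjusted p = 0.0483), where 6.52% of all tested genes were called higher. That call was lost without each of the sham replicates, depleted replicate 1, 2 or 4, or the filter, and with the leukocyte covariate (0.36, adjusted p = 0.457). In the mesenchyme Irf1, a transcription factor that acts on Tap1, B2m and Psmb9, measured 6257, 5995, 5047 and 5313 in sham and 6989.6, 7703, 7343 and 6692 in irradiated libraries. All irradiated libraries were above all sham libraries, and the log2 change was 0.35 ± 0.0830 (adjusted p = 0.0316), which omitting irradiated replicate 2 or 3, or sham replicate 3 or 4, ended (up to 0.122). The 2 groups alone and the leukocyte covariate (0.16, adjusted p = 0.843) ended it too. In depleted against sham mesenchyme, Irf1 (0.27), Ifnar2 (a chain of the type I interferon receptor, 0.35), Stat2 (0.43) and Socs3 (0.42) rose, beside 8.51% of all tested genes. With the leukocyte covariate Ifnar2 kept its call (0.48) and Irf1 (0.17, adjusted p = 0.244), Stat2 (0.36, 0.104) and Socs3 (0.38, 0.0642) did not. Of the 4, Socs3 kept its call without each library in turn. Irf1 lost it without sham replicate 3 or 4 or depleted replicate 1 or 2, Ifnar2 without sham replicate 1 or 3 or depleted replicate 3 or 4, and Stat2 without sham replicate 3 or depleted replicate 2 or 4, at adjusted p up to 0.132, 0.0802 and 0.0691. Irf1 in the epithelium differed by 0.15 ± 0.132 between irradiated and sham (adjusted p = 0.685).

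Of the 7 transcription factors of the class II promoter, none was called in the epithelium in any comparison, nor in the mesenchyme for irradiation or for depleted against irradiated. The NF-Y subunits moved apart in depleted against sham mesenchyme, where Nfyb rose (0.37) and Nfya (-0.26) and the cAMP response factor Creb1 (-0.28) fell. Beside these 3 of 7, 15.2% of all tested genes were called. Nfyb lost its call without sham replicate 1, 3 or 4 or depleted replicate 2 or 4, Nfya without each of the sham replicates or depleted replicate 1, 2 or 4, and Creb1 without sham replicate 1, 2 or 3, irradiated replicate 2 or depleted replicate 1 or 2. Their adjusted p then rose to at most 0.105, 0.105 and 0.134. All 3 calls were also lost without a filter and with the leukocyte covariate, where the differences were 0.30, -0.22 and -0.26. The RFX subunit Rfx5 differed by at most 0.23 in size on the log2 scale in any comparison of either fraction. Of the 11 genes of class I folding and the standard proteasome, 1 was called in depleted against irradiated mesenchyme, beside 2.69% of all tested genes. It was Calr, the chaperone calreticulin, with 3619.6, 3539, 3783 and 3599 in irradiated and 5264, 4349, 5064 and 5201 in depleted libraries. Every depleted library was above every irradiated one, and the log2 change was 0.45 ± 0.0885 (adjusted p = 0.0134, and 0.0611 without depleted replicate 1). In depleted against sham mesenchyme Calr (0.53), its relative Canx (0.33), the disulfide enzyme Pdia3 (0.30) and the glycoprotein sensor Uggt1 (0.22) rose, and in the epithelium Uggt1 alone (0.18), beside 8.51% and 6.52% of all tested genes called higher. The Uggt1 call was lost in the mesenchyme without sham replicate 1, 2 or 3 or depleted replicate 1, 2 or 4 (up to 0.0744), and in the epithelium without sham replicate 1, 2 or 3 or depleted replicate 1, 3 or 4 (up to 0.106), by edgeR (adjusted p = 0.0523), without a filter and with the leukocyte covariate (0.21, 0.161).

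The proteases that prepare class II peptides included called genes in both fractions. Of 8 tested genes of class II proteolysis, Ctsd (cathepsin D) rose in irradiated epithelium, from 1677, 1787, 1599.5 and 1558 to 2072, 2502, 2066 and 2056. The groups were apart, with a log2 change of 0.39 ± 0.0661 (adjusted p = 0.00258) that was called without each library in turn and had an adjusted p of 0.789 with the leukocyte covariate. In depleted against sham epithelium 4 rose: Ctsd, Ctsb (cathepsin B), Ifi30, a lysosomal thiol reductase, and Ctss (cathepsin S, which degrades the invariant chain), the last from 30.4 ± 15.3 to 92.7 ± 21.8. Beside these 4 of 8, 6.52% of all tested genes were called higher. Without sham replicate 3 the adjusted p was 0.0507 for Ifi30 and 0.0599 for Ctss. With the leukocyte covariate Ctsd kept its call, at 0.36, and Ctsb (0.15, adjusted p = 0.212), Ifi30 (0.27, 0.176) and Ctss (0.61, 0.112, from 1.71) lost theirs. In the mesenchyme Ctss measured 62.9, 81.1, 31.3 and 24.9 in sham libraries and 155, 262, 104 and 121 in irradiated libraries, a change of 1.72 ± 0.411 (adjusted p = 0.0462). It was called without sham replicate 2, depleted replicate 2 or depleted replicate 4 and lost without any 1 of the other 9 libraries (up to 0.138), without a filter, with the 2 groups alone and by edgeR (0.0568). Its difference was 0.40 (adjusted p = 0.784) with the leukocyte covariate. In depleted against irradiated mesenchyme Lgmn (legumain) rose from 1017, 1119.9, 1127 and 1264 to 1617, 1644, 1746 and 2029 and Ctsb from 4660.4, 4709, 4684 and 4591 to 6068, 5665, 6801 and 6324. Both were apart between groups, with log2 changes of 0.63 ± 0.0897 (adjusted p = 0.00108) and 0.41 ± 0.0710 (adjusted p = 0.00487), called without each library in turn. In this comparison 2.69% of all tested genes were called. Against sham, depleted mesenchyme had Lgmn (0.84), Ctsb (0.56) and Ctss (1.72) higher, beside 8.51% of all tested genes. Ctss had an adjusted p of 0.0571 without sham replicate 3. All 3 were called with the leukocyte covariate, Ctss at 0.97.

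Of the class I-like molecules, 4 of 6 were tested in each table, and Procr, the endothelial protein C receptor, was the only 1 called. It measured 93.3, 133, 94.9 and 119 in sham, 186, 171, 191 and 189 in irradiated and 239, 213, 359 and 283 in depleted mesenchyme, and the 3 groups did not overlap. Its log2 change was 0.75 ± 0.149 for irradiation (adjusted p = 0.0126, 0.055 without sham replicate 3, and 0.145 at a change of 0.89 with the leukocyte covariate) and 1.29 ± 0.149 for depleted against sham (adjusted p = 3.82e-05). Among all tested genes 2.64% were called higher for irradiation and 8.51% for depleted against sham. The 10 endothelial markers had mean log2 levels of 7.24, 8.27 and 7.86 in the same groups, and their part in the Procr level was not tested. Of the costimulation and checkpoint genes, 4 were tested in the epithelium and none was called. Of 6 tested in the mesenchyme, Cd86, a ligand of CD28, and Tnfsf9, the ligand of 4-1BB, rose in depleted against sham. There 8.51% of all tested genes were called higher. Cd86 went from 6.54 ± 5.72 to 14.5 ± 2.85 (adjusted p = 0.0482) and Tnfsf9 from 75.8 ± 20.7 to 132 ± 9.35 (adjusted p = 0.0182). The Cd86 call held without sham replicate 2 or depleted replicate 3 and was lost without any 1 of the other 10 libraries (up to 0.149). Cd86, whose sham mean lies below the filter, was not called by edgeR (adjusted p = 0.106) or DESeq2 (0.108), nor with a pseudocount of 8, without a filter, with median centring or with the 2 groups alone. The Tnfsf9 call was lost without sham replicate 3 or 4 or depleted replicate 1 (up to 0.0629). Neither Cd86 nor Tnfsf9 was called with the leukocyte covariate (adjusted p = 0.282 and 0.115), at differences of 0.82 and 0.58. Cd274, which encodes PD-L1, went from 16.9 ± 7.57 to 33.2 ± 8.65 in irradiated epithelium and from 42.7 ± 14.2 to 73.8 ± 12.4 in irradiated mesenchyme, with log2 differences of 0.99 ± 0.279 and 0.82 ± 0.245 that were not called (adjusted p = 0.0634 and 0.0712).

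Positions bear on how some of these values can be read. Tap1 and Psmb9 lie head to head on chromosome 17 with overlapping exons on opposite strands. Nlrc5, Psme1, Psmb8, Ciita, Erap1, H2-DMa, Tapbp, Tap2, H2-Q4, H2-T10 and H2-T22 also share exon positions with a gene on the opposite strand. For H2-DMa this is the protein-coding gene Brd2. Whether the counting used strand is not given in the sources used here, so reads from such a gene and its partner may not have been told apart.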

How the data were processed

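Per the submitters' processing notes, reads were handled with cutadapt 1.5, STAR 2.2.2a, SAMtools 1.8, RSEM 1.3.0 and DESeq2 on build GRCm38. The order of the steps, the annotation release and any use of strand are not given in the sources used here. The deposited tables, 1 per fraction, hold a signal in normalised counts, made by the authors by dividing gene counts by 1 factor per library: 100% of the values were whole multiples of a step per library within 0.001. In 2 mesenchymal libraries (sham replicate 3 and depleted replicate 4) that step lay within 1% of 1. Symbols were found in GENCODE M21 for 48435 of 48795 identifiers. The chi-square per degree of freedom between libraries of a group was 2.32 to 14.1, so no library was taken as a copy of another. A count of 0 allows up to 3 reads, for counting error only.

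A gene entered the test with a value of at least 10 in at least 4 of 12 libraries. The test was limma 3.58.1 (trend, robust, R 4.3.3) on log2(value + 1), the 3 groups of a table in 1 fit, Benjamini-Hochberg adjusted over all tested genes and called under 0.05. Fold changes on the log2(value + 1) scale understate those of low genes. Differences between fractions were fitted over all 24 libraries, and the ratio of Cd74 to B2m was tested by an exact permutation test. The fit was tested on simulated data. Errors of means are SDs and errors of log2 changes are SEs. Values in every library are given for H2-K1, H2-D1, B2m, Tap1, Psmb8, Psmb9, Nlrc5, Ciita, Cd74, H2-Aa, H2-Ab1 and H2-Eb1 and for each gene of the group that was called. From other pathway lists each called gene and at most 3 abundant others are named. H2-DMb1 and Cd274 were singled out after their values were seen. The genes and lists were chosen with earlier results of these data known.

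Alternatives were other pseudocounts (0.5 and 8), no filter or a mean of at least 50, centring each library on its median, the 2 compared groups alone, replicate number as a block, the mean leukocyte marker level as a covariate, library weights, edgeR 4.0.16 and DESeq2 1.42.0 on recovered reads, and each library left out in turn.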

Additional observations from a re-analysis of the deposited data

Results flagged for a closer look

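In the mesenchyme, replicate 2 stood apart from the other libraries of its group for class II chains: H2-Ab1 measured 117 normalised counts in irradiated replicate 2 and 141 in depleted replicate 2, H2-Aa 175 and H2-Eb1 103 in depleted replicate 2. In each case the gap to the nearest library was a larger part of the group's range than Dixon's 95% value for 4 libraries. Of 102 groups of 4 libraries examined, 4 met this criterion, and chance gives about 1 in 20. The same libraries had the highest leukocyte marker level of their groups, and also the highest alveolar type 2, endothelial, macrophage and B cell marker levels.

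H2-Ea-ps, which the reference strain carries as a pseudogene, is left out by the rule and by the sum of the A and E chains. It had a mean of 1836 normalised counts in sham epithelium and 49.7 in sham mesenchyme. In epithelium it measured 2171, 1548, 1917 and 1706 in sham, 1859, 1851, 1879.7 and 1871 in irradiated and 1707, 1935, 1772 and 1162 in depleted libraries, with depleted replicate 4 the lowest.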

How the results depend on the processing

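No result changed direction under an alternative with a call, and counts of genes past the threshold were small enough that 1 gene changes their ratio. With the leukocyte covariate, which itself was higher in irradiated libraries, the counts of called class I genes were 0 for irradiated against sham and for depleted against sham in both fractions (2, 2, 2 and 3 without it), the class II count for depleted against sham was 0 in epithelium (1 without it) and 1 in mesenchyme (0 without it; H2-DMb2, lower). Calls over all genes fell as well, from 522 to 45 and 1876 to 362 in epithelium and from 631 to 52 and 2528 to 1478 in mesenchyme. Without a filter, class I for irradiated against sham gave 1 in each fraction and class II for depleted against sham epithelium 0. A mean of at least 50 gave 1 class I gene in epithelium for irradiated and for depleted against sham. With the 2 groups alone, irradiated against sham gave 1 class I gene in each fraction, and depleted against sham epithelium 0 class II genes. DESeq2 called 4 class I genes in irradiated against sham mesenchyme (Tap1, H2-D1, Nlrc5 and H2-Q2) and 2 class II genes in depleted against sham epithelium (Cd74 and H2-Aa).

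Leaving out each library in turn gave 0 to 2 class I genes for irradiated and 1 to 3 for depleted against sham epithelium, 1 to 2 and 0 to 3 in the mesenchyme, 0 to 2 class II genes for depleted against sham epithelium, 0 to 1 for irradiated against sham mesenchyme, and 0 to 1 for the interaction of irradiation. The ratio of Cd74 to B2m then differed by 6.76 to 7.29, with p = 0.0571 in the exact permutation test, the smallest that 3 against 4 libraries allow.

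The labels number replicates in every group, and with the replicate block irradiated against sham mesenchyme gave 5 class I genes (Tap1, H2-Q6, H2-D1, Nlrc5 and H2-Q2) and 5 class II genes (Cd74, H2-Aa, H2-Eb1, H2-Ab1 and H2-DMb1), and depleted against sham mesenchyme 2 class II genes (Cd74 and H2-Ab1). Calls over all genes went from 631 to 1048 for irradiated against sham mesenchyme and from 95 to 184 for the interaction of irradiation, and no other count of calls moved by over 1.5 times under the block. Libraries with the same number correlated above 0.1 in 4 of 24 pairs within a fraction (-0.11 to 0.17) and in 7 of 12 between fractions (-0.04 to 0.25). The same number was the best match in 8 of 24 pairs within a fraction and in 9 of 12 between fractions. These matches were not spread evenly over the numbers. Replicate 2 was its own best match in every pair, at correlations of 0.05 to 0.17 within a fraction and 0.11 to 0.13 between fractions. What the libraries numbered 2 share was not tested. Whether a number stands for 1 mouse in both fractions was thus not settled. The interaction fit and the test of the Cd74 to B2m ratio took all libraries as independent.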

Other observations

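H2-Ke6, which lies in the H2 complex and encodes a hydroxysteroid dehydrogenase and not an antigen-presenting molecule, was the only tested gene that shares the name prefix alone. Its level ran from 260.3 to 332 normalised counts in epithelium and from 76.1 to 133 in mesenchyme, and it was called in no comparison, with log2 differences from irradiated to sham of 0.10 ± 0.0868 and 0.14 ± 0.149. Cd1d1, which presents lipids to NKT cells, lay between 1.04 and 12.7 normalised counts in the epithelial and between 45.1 and 84.1 in the mesenchymal libraries and was called in none of the comparisons.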
